A study of Mus musculus with 2 samples.

Results

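The genes described here build and run the DNA replication machinery, from the choice of origins to the joining of Okazaki fragments. They are the 37 rows of the deposited expression table whose symbol is one of a fixed list of origin, helicase, polymerase and clamp genes, out of 18888 rows, and all 37 symbols on the list were found. RNA came from 46C mouse embryonic stem cells (mESCs) at passages 21 to 24, grown on gelatin. PB mESCs carry the empty PiggyBac (PB) vector, and PB-TERRA mESCs carry the same vector with telomeric repeats, from which polyadenylated telomeric repeat-containing RNA (TERRA) is overexpressed. Both groups share the line and the vector backbone, the promoter that drives TERRA is not named in the sources used here, and they do not say whether the cells were clones or pools. Each group has 1 library, so no spread between cultures can be estimated, and every difference below is a difference between 2 libraries with no replicate check.

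A replication origin is licensed in G1 phase, when the origin recognition complex (Orc1 to Orc6) and Cdc6 receive Cdt1 with the ring-shaped helicase Mcm2 to Mcm7 and load it around the DNA. Geminin (Gmnn) binds Cdt1 and blocks further loading once S phase has begun. Cdc45 and the GINS proteins then turn the loaded ring into an active helicase, polymerase alpha with primase starts each strand, the clamp PCNA is put on by replication factor C, and polymerases delta and epsilon extend. mESCs divide fast with a short G1 phase and are known for high levels of licensing proteins. Much of this gene set is transcribed under E2F factors at the passage from G1 into S phase.

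Levels are given per length, as FPKM (fragments scaled to transcript length and library depth), so genes can be set side by side. The unit is not named in the header and was inferred. Read numbers are not listed, but low values of short genes fall on steps of whole reads. Those steps gave a depth of 24.76 M reads in PB and 24.89 M in PB-TERRA, with 114 bases taken off each gene length. The reads computed from every row with these figures summed to 24765051 and 24885762. The members had between 320 and 16256 reads in a library. The 95% intervals given with log2 ratios are exact binomial (Clopper-Pearson) intervals of these reads, and they cover counting error only, not the variation between cultures. A log2 ratio compares FPKM + 0.1 in PB-TERRA with that in PB, so values above 0 mean a higher level in PB-TERRA.

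Both libraries had the defining transcripts of mESCs at high levels, with Pou5f1 at 745 FPKM in PB against 773 in PB-TERRA and Nanog at 186 and 173. Among the 11 fibroblast markers found, 5 reached 1 FPKM in a library, and the list summed to 21.7 FPKM in PB against 25.8 in PB-TERRA, with Col1a1 at 7.99 and 12.1 FPKM and Prrx1 at the table's lowest value in PB. Of 14 primitive endoderm markers 12 passed this limit, and all 12 were higher in PB-TERRA with a median log2 ratio of 0.33. Among them 8 had a log2 ratio of at least 0.2, against 11.6% of all genes, with Gata6 at 1.22 and 2.26 FPKM and Pdgfra at a log2 ratio of 0.85. The 14 markers summed to 160 FPKM in PB and 176 in PB-TERRA, most of it from Sparc (83.5 and 86.5 FPKM). The 12 neural markers summed to 90.2 and 78.5 FPKM, with Dcx at the lowest value in both libraries. Of the 4 past the limit, Nes (27.30 and 20.93 FPKM) and Tubb3 (57.7 and 51.5 FPKM) had intervals below 0, Sox1 (1.06 and 1.56 FPKM) one above 0, and that of Map2 included 0. The part of these cells in the differences below was not tested, and in bulk RNA fewer cells of a type and less RNA per cell cannot be told apart.

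The row named Mcm10 stood apart before any comparison. Mcm10 is a scaffold protein that helps to activate the helicase. The table gives it a length of 517 bases and a level of 1327 FPKM in PB against 1621 in PB-TERRA, while the second-ranked member, Pcna, had 214 and 209 FPKM. The protein-coding transcripts of Mcm10 in the GENCODE M21 annotation of GRCm38 are 3494 and 4867 bases long, and the shortest of its annotated transcripts has 508. None of the stretches of 50 bases in the longest coding transcript occurs in a transcript of another gene (0%). This covers that transcript only and cannot show whether the sequence behind the row of 517 bases is shared. Which transcript the row stands for is not stated in the sources used here, so its values are given with the row's length beside them, and the counts below are also given without it.

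A feature that the gene list was not chosen on is the sequence at the start of these genes. RefSeq promoter windows (GRCm38.p6, 250 bases before to 50 after the annotated start) were matched by NCBI gene number for 29 of the 37 members. Some genes have several annotated starts, and the 29 members had 37 windows in all. A gene counts if any of its windows holds the word, so genes with more windows have more chances. Mcm4, Gmnn, Gins1, Gins2, Gins4, Rfc2, Prim2 and Pole were without a match. The E2F consensus was searched on both strands as the words TTTCCCGC, TTTCGCGC, TTTGCCGC and TTTGGCGC. It was found in 14 of the 29 members (48.3%), against 704 of all 27025 genes with a window (2.61%) and 484 of the 9473 with a window that passed the expression filter of 1 FPKM (5.11%). The members with a match are Mcm3, Mcm5, Mcm6, Mcm7, Orc1, Orc3, Cdc6, Cdt1, Gins3, Rfc3, Pola1, Pold1, Pole2 and Lig1, with at least 1 gene from each step, origin recognition to ligation. A match describes the letters in this window and does not show that a factor binds there.

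**Figure D1:**
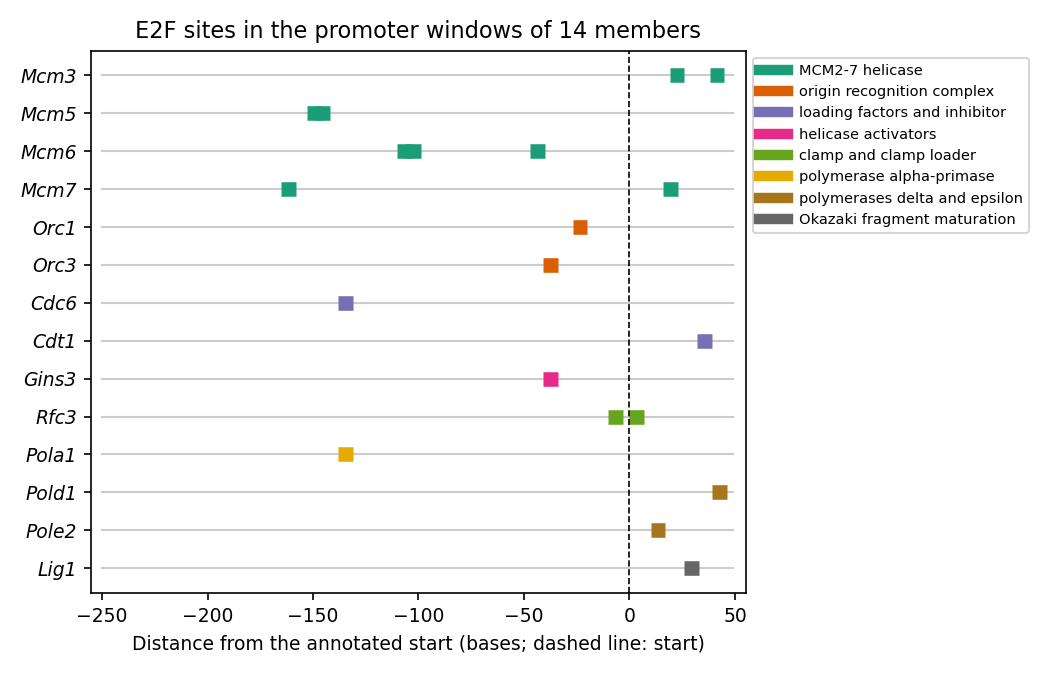
Position of E2F consensus matches in the promoter windows of the 14 members that have one. The horizontal axis is the distance in bases from the annotated start (dashed line), each row is a gene, grey lines are the windows and coloured blocks are matches. Matches lie on both sides of the start, and Mcm6 has 3.

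The windows of 5 members are shown because they span the steps of licensing (Orc1, Cdc6), helicase (Mcm5) and synthesis (Pold1, Pole2), and because Pold1 and Pole2 had the lowest log2 ratios of the list. They are read 5′ to 3′ on the strand of the gene, from chr4:108579204-108579503 (+) for Orc1, chr11:98907901-98908200 (+) for Cdc6, chr8:75109259-75109558 (+) for Mcm5, chr7:44548766-44549065 (-) for Pold1 and chr12:69228141-69228440 (-) for Pole2. Capitals mark the E2F consensus on either strand. In Mcm5 a pair of matches overlap.
Orc1: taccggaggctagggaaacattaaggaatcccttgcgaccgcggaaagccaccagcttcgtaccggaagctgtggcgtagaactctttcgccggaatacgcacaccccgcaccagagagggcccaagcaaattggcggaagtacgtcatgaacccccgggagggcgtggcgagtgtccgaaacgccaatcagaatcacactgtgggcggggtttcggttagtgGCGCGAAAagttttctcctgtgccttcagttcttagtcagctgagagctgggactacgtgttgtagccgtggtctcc
Cdc6: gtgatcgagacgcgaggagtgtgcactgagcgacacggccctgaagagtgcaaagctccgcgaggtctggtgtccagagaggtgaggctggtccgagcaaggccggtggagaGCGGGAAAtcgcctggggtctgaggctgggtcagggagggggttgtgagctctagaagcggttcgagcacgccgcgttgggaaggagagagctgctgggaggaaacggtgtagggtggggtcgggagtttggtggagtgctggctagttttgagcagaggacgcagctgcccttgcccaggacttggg
Mcm5: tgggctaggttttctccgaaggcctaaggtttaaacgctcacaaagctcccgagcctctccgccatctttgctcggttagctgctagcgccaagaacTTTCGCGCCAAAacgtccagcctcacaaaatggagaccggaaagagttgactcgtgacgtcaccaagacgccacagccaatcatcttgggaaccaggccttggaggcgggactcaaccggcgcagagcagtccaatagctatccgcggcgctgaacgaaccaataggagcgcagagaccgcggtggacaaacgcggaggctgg
Pold1: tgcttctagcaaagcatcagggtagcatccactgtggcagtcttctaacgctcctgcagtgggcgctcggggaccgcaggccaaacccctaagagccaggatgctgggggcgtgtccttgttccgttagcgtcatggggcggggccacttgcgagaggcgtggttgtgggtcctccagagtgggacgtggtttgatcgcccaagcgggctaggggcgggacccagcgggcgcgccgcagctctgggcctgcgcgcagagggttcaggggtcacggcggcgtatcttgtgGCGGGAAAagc
Pole2: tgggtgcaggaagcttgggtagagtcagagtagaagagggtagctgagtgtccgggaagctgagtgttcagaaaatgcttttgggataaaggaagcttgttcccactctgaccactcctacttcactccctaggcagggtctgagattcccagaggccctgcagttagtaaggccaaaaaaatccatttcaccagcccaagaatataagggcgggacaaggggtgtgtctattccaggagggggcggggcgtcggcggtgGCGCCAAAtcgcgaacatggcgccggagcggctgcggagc

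For comparison, other promoter words were counted in the same windows. The CCAAT box (CCAAT on either strand) was in a window of 18 of the 29 members (62.1%) against 43.6% of genes past the filter. A GC box (GGGCGG) was in 22 (75.9%) against 71.2%, and the cell cycle homology element TTTGAA in 5 (17.2%) against 13.9%. Matches of different words may overlap in a window. The 14 members with an E2F match had a median log2 ratio of -0.06, 3 higher and 11 lower in PB-TERRA. The 15 without one had a median of -0.03, 6 higher and 9 lower. Of all genes past the filter 50.9% were lower, and other genes with a match were not split by sign. With both libraries set to the same sum of FPKM, Mcm5 and Mcm7 (with a match) and Orc6 and Pcna (without) changed to higher. Whether the 14 and the 15 differ was not tested.

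All 37 members passed the expression filter. In PB, the Mcm10 row lay at the 99.8th percentile of all rows and Pcna, the next, at the 98.3rd. Gins3 was the lowest, at 5.62 FPKM in PB against 5.93 in PB-TERRA, and lay at the 55.9th and 57.0th percentile of all rows. The order of the members by level was nearly the same in both libraries. Without Mcm10, Spearman's rho between the log2 FPKM of PB and of PB-TERRA was 0.991 over 36 genes, which are not independent replicates. The rank of a gene moved by at most 4 places, and by more than 2 places for 3 genes.

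**Figure D2:**
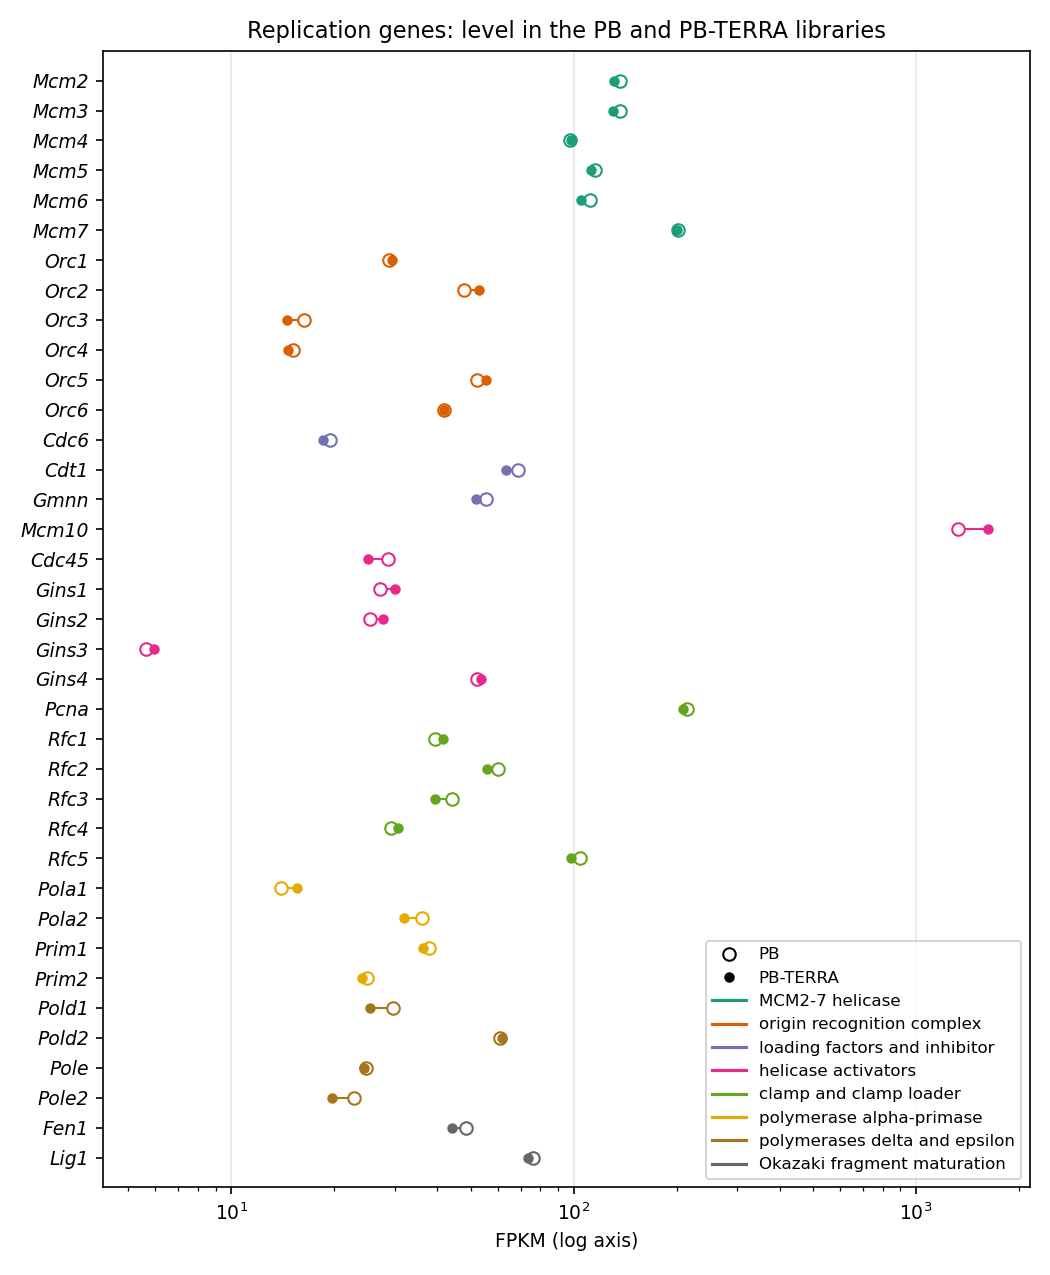
Level of each replication gene in both libraries, by step of replication. The horizontal axis is FPKM on a log scale, open circles are PB and filled circles PB-TERRA, 1 library each. The 2 circles nearly coincide for most genes, Mcm2 to Mcm7 lie between 97.9 and 202 FPKM, and Mcm10 lies apart at 1327 and 1621 FPKM.

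Between the libraries the replication genes differed little, as did most genes at or above the level of the lowest member. None of the 37 (0) had a log2 ratio of at least 1 or at most -1, limits passed by 0.44% and 0.473% of the 12263 genes past the filter. At a smaller limit of 0.2, 1 member (Mcm10) was higher, against 11.6% of all genes, and 2 (Pold1 and Pole2) were lower, against 13.6%. Genes of low level spread more, and of 8149 genes with at least the level of Gins3 in both libraries 6.69% were past this limit upward and 8.43% downward. The members' shares, 2.7% and 5.41%, are close to these for a list of 37 genes. In FPKM, 27 members lay within 10% of their PB level and 17 within 5%. The shares of all genes within these limits were not computed, so these counts only describe the members. The median log2 ratio of the members was -0.04 (SD 0.11 across genes), and that of all genes past the filter was -0.0044. Among the 8149 genes the SD was 0.16, and the middle 90% ran from -0.26 to 0.23. All members except Mcm10, 36 of 37, lay in that range. The 8149 genes had a median of 20.1 FPKM in PB against 44.1 for the members. They are thus not matched in level, and part of their wider spread may come from lower levels.

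By sign, 24 members were lower and 13 higher in PB-TERRA, which is 64.9% lower against 50.9% of all genes past the filter. The zero point of this split is set by the scaling. With both libraries set to the same sum of FPKM, all genes move up by about 0.04 together, because the FPKM of PB-TERRA sum to less. Then 19 members were lower and 18 higher (51.4% lower), against 41.3% lower of all genes past the filter. The median of the members was then -0.0056 and that of all genes 0.03. Because all genes move together, this scaling leaves the gap between these medians as it was. The counting interval lay below 0 for 13 members, against 17.6% of all genes, and above 0 for 5, against 18.2%, and it included 0 for 19. Among the 8149 genes these shares were 20.3% and 20.9%. Set to the same sum, these counts were 9 below and 8 above, against 12.3% and 25% of all genes. The intervals of Mcm2, Mcm3, Rfc2 and Rfc5 then included 0, and those of Mcm4, Gins1 and Gins2 lay above it. Without Mcm10, 24 of 36 were lower and the interval lay above 0 for 4.

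**Figure D3:**
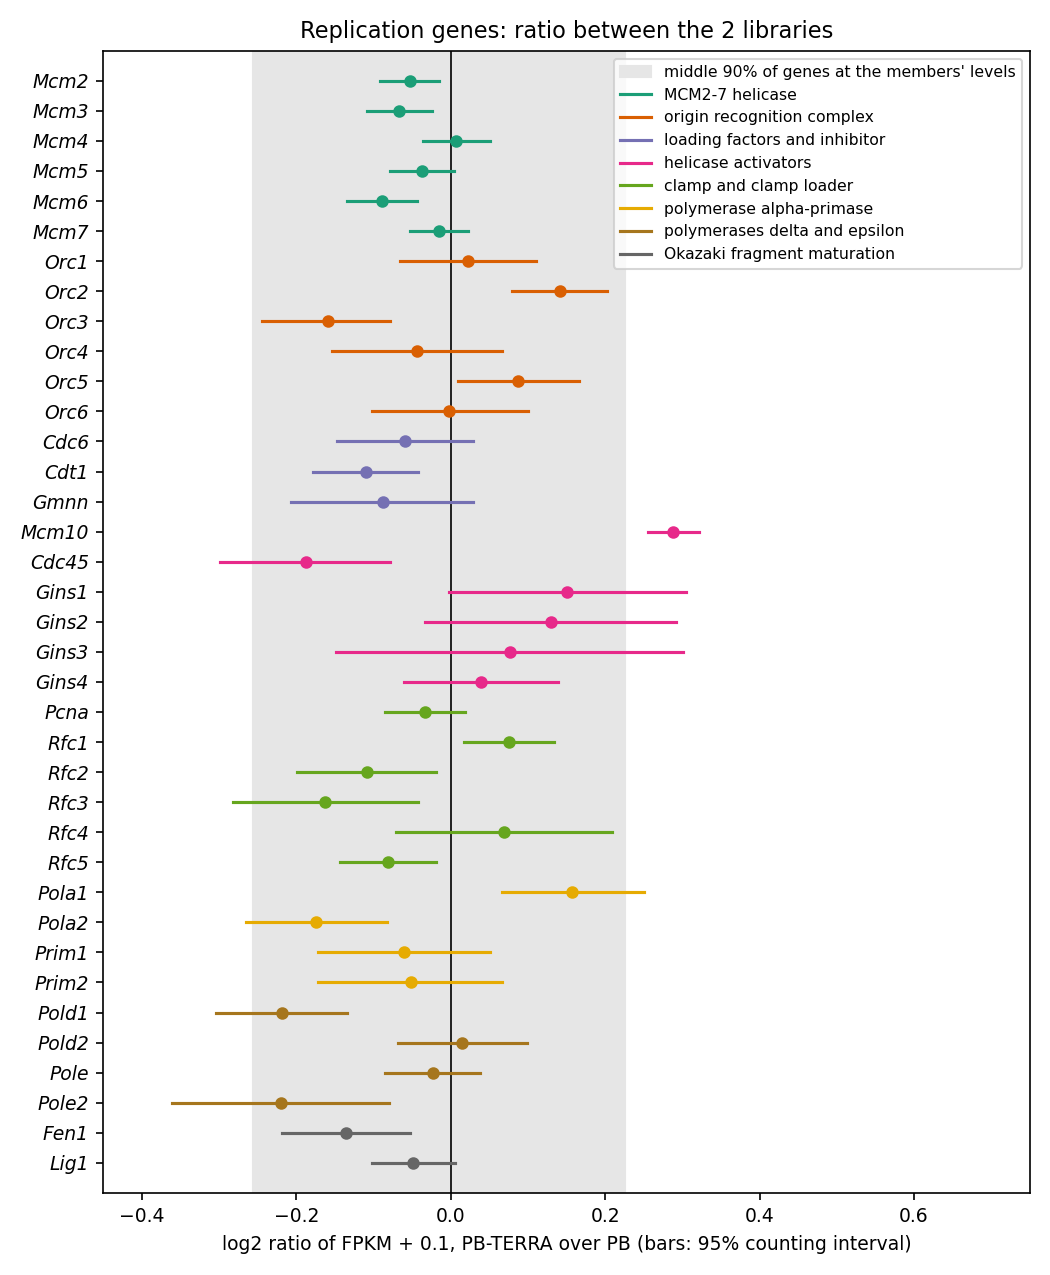
log2 ratio of each replication gene, PB-TERRA over PB, by step of replication. Points are the ratios, computed with 0.1 FPKM added, and bars are 95% counting intervals of the reads. The grey band is the middle 90% (-0.26 to 0.23) of 8149 genes with at least the level of Gins3, the lowest member, in both libraries. Only the point of Mcm10, at 0.29, lies outside the band, and 13 bars lie wholly below 0.

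The origin recognition complex marks origins and is built of 6 subunits, whose levels were uneven. Orc5 was the most abundant with 52.4 FPKM in PB against 55.7 in PB-TERRA. Orc4 was lowest in PB (15.1 FPKM, 14.7 in PB-TERRA) and Orc3 lowest in PB-TERRA. The highest subunit was 3.47 times the lowest in PB and 3.81 times in PB-TERRA. The table gives Orc3 a length of 6311 bases, while its longest coding transcript in GENCODE M21 has 2300, and a longer gene length gives a lower FPKM, so the place of Orc3 in this order and the mean of the complex are uncertain. The subunits went both ways. Orc2 had 47.9 FPKM in PB against 52.9 in PB-TERRA, and its log2 ratio was 0.14 (95% interval 0.08 to 0.20). Orc5 had a log2 ratio of 0.09 (95% interval 0.0087 to 0.17). Orc3, with 16.3 and 14.6 FPKM, had a log2 ratio of -0.16 (95% interval -0.24 to -0.08). The interval included 0 for Orc1, the ATPase whose level varies with the cell cycle in many cells (29.0 and 29.4 FPKM), for Orc4, and for Orc6 (41.9 and 41.8 FPKM). Reads of Orc2 are uncertain, since exons of Nif3l1 on the opposite strand cover 24.0% of its exon bases and the sources do not say whether counting used the strand. The sum over the complex was 203 FPKM in PB against 209 in PB-TERRA.

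The loading factors and their inhibitor were all lower in the PB-TERRA library, by small amounts. Cdc6, the ATPase that completes the loading platform, had 19.4 FPKM in PB against 18.6 in PB-TERRA, with a log2 ratio of -0.06 (95% interval -0.15 to 0.03). Cdt1, which delivers the helicase, had 68.6 and 63.5 FPKM and a log2 ratio of -0.11 (95% interval -0.18 to -0.04). Gmnn, its inhibitor, had 55.3 and 52.0 FPKM and a log2 ratio of -0.09 (95% interval -0.21 to 0.03). Of these, only the interval of Cdt1 lay on 1 side of 0. Cdt1 and Gmnn kept nearly the same proportion, 1.24 FPKM of Cdt1 to 1 of Gmnn in PB and 1.22 in PB-TERRA.

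The helicase subunits Mcm2 to Mcm7, which form a ring with 1 copy of each, had the highest summed level of the complexes on the list, apart from the group that holds the Mcm10 row. Mcm7 was highest with 202 FPKM in PB against 200.3 in PB-TERRA, and Mcm4 lowest with 97.9 and 98.3, a span of 2.07 and 2.04 times. Mcm2 had 137 and 132 FPKM and Mcm3 had 137 and 131. Mcm5 had 115 and 112 FPKM, and Mcm6 had 112 and 105. The log2 ratios ran from -0.09 (Mcm6, 95% interval -0.13 to -0.04) to 0.01 (Mcm4), with an SD of 0.03 across the 6 genes. The interval lay below 0 for Mcm2, Mcm3 and Mcm6, and at equal FPKM sums for Mcm6 but not Mcm2 or Mcm3, while that of Mcm4 lay above 0. The mean of the 6 subunits was 133 FPKM in PB against 129.7 in PB-TERRA, which is 3.95 and 3.72 times the mean of Orc1 to Orc6. Mcm7 is uncertain, since 34.2% of its 50-base stretches also occur in other annotated transcripts, most of them in Gm5487.

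Among the factors that activate the loaded helicase, the interval of Cdc45 lay below 0 and those of the GINS genes included 0. Cdc45 had 28.7 FPKM in PB against 25.1 in PB-TERRA, and its log2 ratio was -0.19 (95% interval -0.30 to -0.08). The 4 GINS genes were all higher in PB-TERRA, but each interval included 0. At equal FPKM sums the intervals of Gins1 and Gins2 lay above 0. Gins1 had 27.15 and 30.16 FPKM (log2 ratio 0.15, 95% interval -0.0020 to 0.31), and Gins2 had 25.4 and 27.8 FPKM (log2 ratio 0.13). Gins2 is uncertain, since exons of Gse1 on the opposite strand cover 70.7% of its annotated exon bases. Its length in the table is 1061 bases against 3900 for its longest coding transcript. Whether the overlap lies in those 1061 bases was not checked. Gins4 had 52.2 and 53.6 FPKM, and Gins3 had the widest interval of the list, from -0.15 to 0.30, on 320 and 339 reads. Gins4 and Gins3 code for subunits of the same complex and differed 9.29-fold in level in PB and 9.04-fold in PB-TERRA. Without Mcm10 the median log2 ratio of this group was 0.08, and with it 0.10.

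Mcm10 had the largest log2 ratio of the list, 0.29 (95% interval 0.25 to 0.32), from 13244 reads in PB and 16256 in PB-TERRA. Of 81 rows with at least 1000 FPKM in PB, 18 were higher in PB-TERRA and 2 had a log2 ratio of at least 0.2, one of them Mcm10, while the median of these rows was -0.11. As given above, the row's length of 517 bases is far below that of the coding transcripts, so the value is not read as a level of full-length Mcm10 mRNA.

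**Figure D4:**
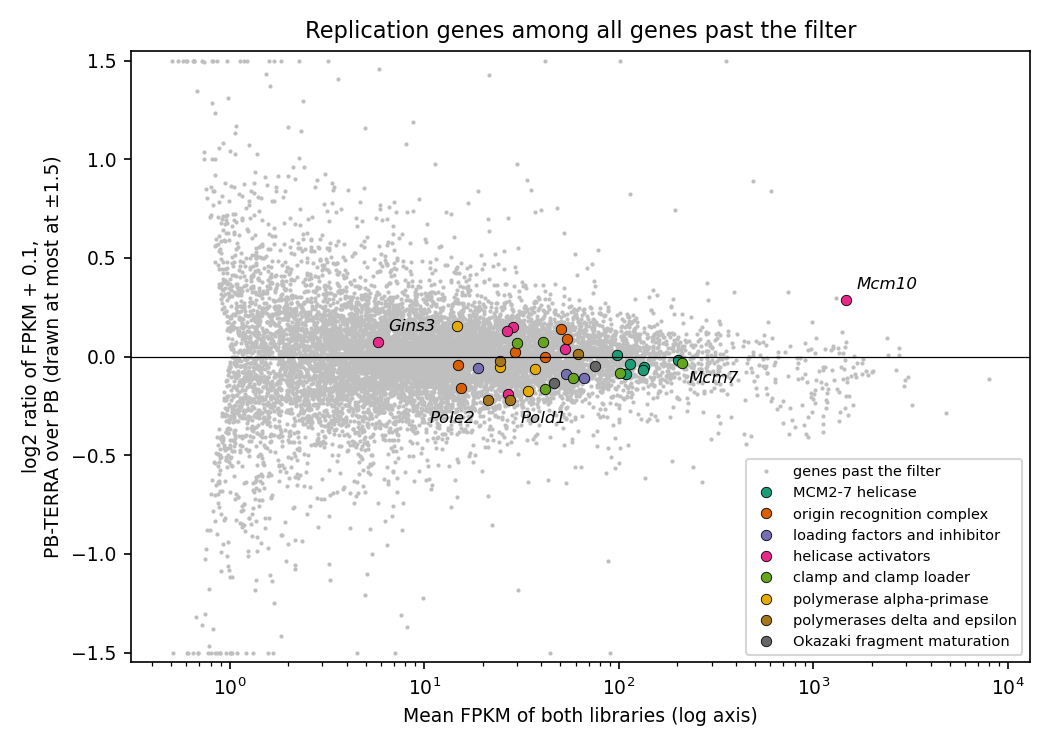
log2 ratio against mean FPKM for the 12263 genes past the filter (grey) with the replication genes coloured by step. Ratios beyond 1.5 in either direction are drawn at that limit, and the horizontal axis is logarithmic. The members lie in the dense middle of the cloud, and Mcm10, at 0.29, above most genes of similar level.

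Polymerase alpha-primase, which lays down the RNA-DNA primers, was split between its subunits. The catalytic subunit Pola1 had 13.98 FPKM in PB against 15.60 in PB-TERRA, and its log2 ratio was 0.16 (95% interval 0.07 to 0.25). Its partner Pola2 had 36.1 and 32.0 FPKM, a log2 ratio of -0.17 (95% interval -0.27 to -0.08), so the intervals of the pair lay on opposite sides of 0. The primase subunits Prim1 (37.9 and 36.3 FPKM) and Prim2 (24.99 and 24.10 FPKM) had intervals that included 0. The difference in level between Pola2 and Pola1 was smaller in PB-TERRA, and the span of the group was 2.71 times in PB and 2.33 times in PB-TERRA.

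The clamp gene Pcna had 214 FPKM in PB against 209 in PB-TERRA, with a log2 ratio of -0.03 (95% interval -0.09 to 0.02). PCNA encircles DNA and holds the polymerases, and its transcript was 3.86 times the mean of the clamp loader genes Rfc1 to Rfc5 in PB and 3.93 times in PB-TERRA. Of the 50-base stretches of Pcna, 31.8% also occur in the pseudogene Pcna-ps2. The clamp loader subunits varied more among themselves. Rfc1, the large subunit, had 39.5 and 41.6 FPKM and a log2 ratio of 0.08 (95% interval 0.02 to 0.13). Rfc3 had 44.1 and 39.4 FPKM and a log2 ratio of -0.16 (95% interval -0.28 to -0.04). Rfc2 (60.1 and 55.7 FPKM) and Rfc5 (104 and 98.5 FPKM) were also lower with intervals below 0, which included 0 at equal FPKM sums. Both are uncertain, since 19.8% of the stretches of Rfc2 and 23.0% of those of Rfc5 are shared with other transcripts, most of them of Lat2 and Wsb2. The table gives Rfc2 1518 bases against 4995 for its longest coding transcript, and whether the shared part lies in those 1518 was not checked. The interval of Rfc4 (29.3 and 30.8 FPKM) included 0.

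The lowest log2 ratios were those of a catalytic and an accessory polymerase subunit. Pole2, the second subunit of the leading-strand polymerase epsilon, had 22.9 FPKM in PB against 19.6 in PB-TERRA, on 896 and 773 reads, with a log2 ratio of -0.22 (95% interval -0.36 to -0.08). Pold1, the catalytic subunit of the lagging-strand polymerase delta, had 29.6 and 25.5 FPKM, on 2430 and 2099 reads, also -0.22 (95% interval -0.30 to -0.13). Among all genes past the filter these values lay at the 11.6th and 11.8th percentile. At equal FPKM sums, which shift all genes alike, both were -0.18 and so short of the limit of 0.2. Their partners in the same enzymes differed less. Pole, the catalytic subunit of epsilon, had 24.8 and 24.4 FPKM (log2 ratio -0.02), and Pold2 had 61.2 and 61.8 FPKM (log2 ratio 0.01), with intervals that included 0. For Pole2, 14.4% of the exon bases are shared with Gm49384 on the same strand.

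Fen1 and Lig1 finish the lagging strand, the first by trimming flaps and the second by sealing nicks. Fen1 had 48.4 FPKM in PB against 44.0 in PB-TERRA, and its log2 ratio was -0.14 (95% interval -0.22 to -0.05). Lig1 had 76.3 and 73.7 FPKM and a log2 ratio of -0.05 (95% interval -0.10 to 0.0054). Other annotated exons cover 84.1% of the exon bases of Fen1, most of them from Gm10143 on the opposite strand, so its value is uncertain. In all, 14 members share at least 5% of their stretches or exon bases with other annotated genes, namely Mcm7, Orc1, Orc2, Orc4, Orc6, Cdc45, Gins2, Pcna, Rfc2, Rfc4, Rfc5, Pole2, Fen1 and Lig1. Among the 23 others, 14 were lower and 9 higher, and the interval lay below 0 for 8 and above 0 for 4, against 17.6% and 18.2% of all genes.

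Other replication genes, a list of 39 factors that fire origins, stabilise forks or follow them, are given for comparison. All 39 passed the filter, Pclaf under an older symbol matched by its NCBI gene number. Their median log2 ratio was -0.03, with 15 higher and 23 lower, and the interval lay above 0 for 5 (12.8%) and below 0 for 7 (17.9%), against 18.2% and 17.6% of all genes. With both libraries set to the same sum of FPKM the median was 0.01 against 0.03 for all genes, 22 were higher and 17 lower (56.4% higher against 58.7% of all genes), and 9 intervals lay above (23.1%) and 5 below 0 (12.8%), against 25% and 12.3% of all genes. The 3 highest were Pold4, a small subunit of polymerase delta (4.01 and 4.80 FPKM, log2 ratio 0.25, interval including 0), the single-strand binding subunit Rpa3 (33.1 and 37.9 FPKM, 0.19) and the replication timing factor Rif1 (53.9 and 60.7 FPKM, 0.17). The 3 lowest were Cdc7, the kinase that fires origins together with Dbf4 (17.1 and 14.6 FPKM, -0.23), the helicase Recql4 (9.79 and 8.63 FPKM, -0.18) and Rpa2 (44.73 and 39.99 FPKM, -0.16). At the limit of 0.2 this list had 1 gene higher and 1 lower, against 11.6% and 13.6% of all genes. The gene ontology term DNA replication in the table marks 72 genes, of which 5 are members. It was matched by its exact name, so genes with only a narrower term were left out. One such term, DNA replication initiation, marks 8 genes, 2 of them members. With so few members in it, the term is not a full list of replication genes. Of the 67 others 53 passed the filter, with 31 higher and 22 lower, a median log2 ratio of 0.02, and intervals above 0 for 13 (24.5%) and below 0 for 5 (9.43%). At equal FPKM sums 40 were higher and 13 lower, 22 intervals lay above (41.5%) and 4 below 0 (7.55%), and the median was 0.06. The median of these genes was above 0 and that of the members below it.

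**Figure D5:**
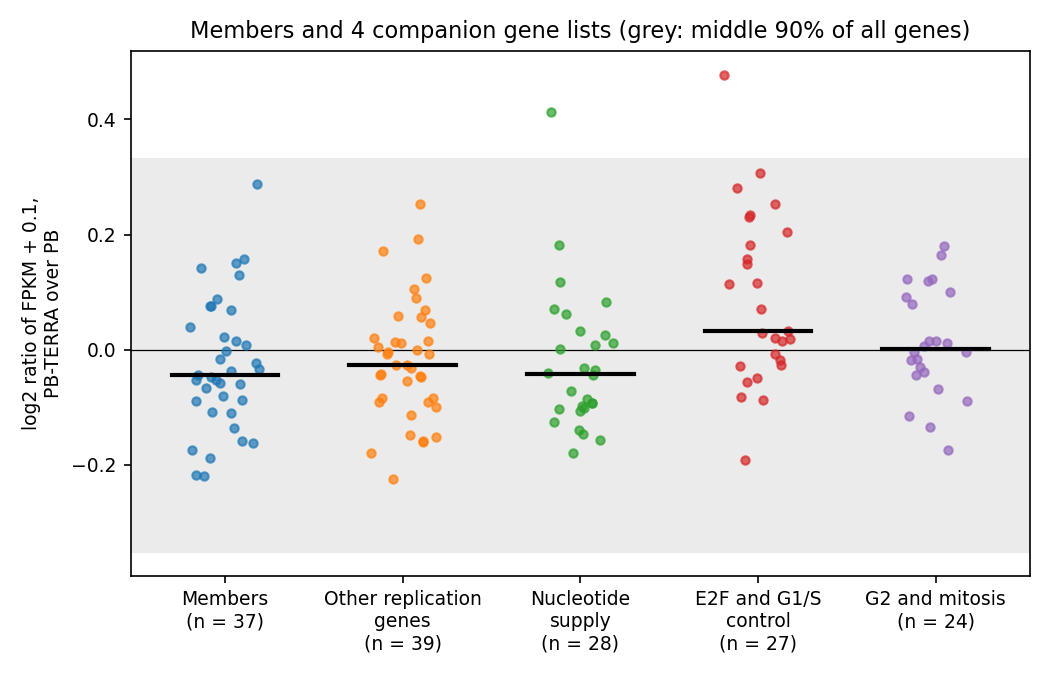
log2 ratio of each gene past the filter in the members and in 4 companion lists, PB-TERRA over PB. Points are genes, spread sideways for clarity, black bars are medians, and the grey band is the middle 90% of all genes past the filter (-0.35 to 0.33). The medians lie between -0.04 for the members and 0.03 for the E2F and G1/S control genes.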

How the data were processed

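RNA-seq was done on the BGISEQ-500 platform with 1 library of PB and 1 of PB-TERRA 46C mESCs, from total RNA. The authors deposited 1 table of 18888 genes, whose expression values were read as FPKM, rounded to 2 decimals with a floor of 0.01. The gene length in bases stands beside them. Per the labels, the processing notes name HISAT, Cufflinks and the build mm9. The sources used here do not say which of these tools gave the expression values, and they do not name the annotation. Columns with the authors' own fold changes, p-values and calls were not used.

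Reads were computed from FPKM, gene length and a depth fitted to the whole-read steps of genes under 3 FPKM and of 200 to 900 bases. Of these values, 72.1% in PB and 77.3% in PB-TERRA lay within 0.1 of a whole read. The method was tested on simulated tables with known depths. The log2 ratio used a pseudocount of 0.1 FPKM, the filter was 1 FPKM in at least 1 library, and the limits were 1 and 0.2. With 1 library per group no test was made and no p-value is given. Every member is named. Of each other list the 3 highest and 3 lowest genes past the filter are named. No gene of the ontology term is named, and the marker genes named were chosen after their values were seen. The members, lists and limits were chosen with earlier results of these data known. Shared stretches of 50 bases and overlapping exons came from GENCODE M21 (GRCm38), a different build from mm9. Alternatives were the pseudocount, the filter, the scaling, the full gene length for reads, and corrections for gene length and expression level in 50 bins. Leaving out Mcm10, leaving out members with shared sequence, and counting intervals at equal FPKM sums were added after seeing the data. Scripts ran in Python 3.11.15. Tables were handled with pandas 2.3.3 and numpy 2.4.6, intervals computed with scipy 1.17.1, and plots drawn with matplotlib 3.10.9.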

Additional observations from a re-analysis of the deposited data

How the results depend on the processing

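No paired analysis was possible because each group has 1 library, and no library could be left out. Pseudocounts of 0.01 and 1 FPKM, no filter, and a mean of at least 5 FPKM changed the sign of 0 members. Centring on the median of all genes, median-of-ratios factors and the correction for expression level each changed 1, Orc6. The correction for gene length changed 3 (Mcm7, Orc6 and Pcna), and equal FPKM sums, which shift all genes alike by 0.04, changed 5 (Mcm5, Mcm7, Orc6, Pcna and Pole). At equal FPKM sums 0 members had a log2 ratio of at most -0.2, against 2 as reported, with Pold1 and Pole2 at -0.18 each, while the share of all genes went from 13.6% to 10.4%. Likewise 8 members had an interval above 0, with 25% of all genes. With the full gene length used for reads, 6 intervals lay above and 13 below 0. The median log2 ratio of the members ran from -0.0056 (equal sums) to -0.04 over the alternatives of pseudocount, filter, scaling and correction, and at equal sums the median of all genes moved with it from -0.0044 to 0.03. Mcm10 was higher under all of them, up to 0.37 with the length correction. Without the 14 members that share stretches or exons with other genes, which leaves fewer genes to count, 14 were lower and 8 had an interval below 0, and the median was -0.05. Depth limits Gins3 most, with 320 reads in PB.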

Other observations

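Genes that act before and beside replication were compared between the same libraries. Of 28 genes for E2F factors, pocket proteins, G1 cyclins and their kinases and inhibitors, 27 passed the filter, 18 of them higher and 9 lower in PB-TERRA, with a median log2 ratio of 0.03. The counting interval lay above 0 for 12 (44.4%) and below 0 for 2 (7.41%), against 18.2% and 17.6% of all genes. At equal FPKM sums 22 were higher and 5 lower (81.5% higher, against 58.7% of all genes), and 15 intervals lay above (55.6%) and 1 below 0 (3.7%), against 25% and 12.3% of all genes. The highest were E2f2, an activator of S-phase genes (7.13 and 9.97 FPKM in PB and PB-TERRA, log2 ratio 0.48, 95% interval 0.35 to 0.62), Ccnd2 (1.93 and 2.41 FPKM, 0.31) and the repressor E2f8 (19.31 and 23.47 FPKM, 0.28). The lowest were Cdk4 (383 and 336 FPKM, -0.19, 95% interval -0.23 to -0.15), the inhibitor Cdkn1b (12.4 and 11.6 FPKM, -0.09, interval including 0) and E2f4 (159 and 151 FPKM, -0.08). No p-value stands behind these counts, and whether they differ from those of the replication genes was not tested.

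Of 28 genes for the supply of nucleotides, all past the filter, 17 were lower and 11 higher. The median was -0.04 on the log2 scale, with intervals below 0 for 12 (42.9%) and above 0 for 4 (14.3%), against 17.6% and 18.2% of all genes. With both libraries set to the same sum of FPKM, 7 intervals lay below 0 and 7 above (25% each, against 12.3% and 25% of all genes), and 15 genes were lower and 13 higher. Rrm2b, the ribonucleotide reductase subunit used outside S phase, was highest at 0.41 (2.22 and 2.99 FPKM), followed by Cmpk1 (0.18) and the thymidylate synthase Tyms (0.12). Nme1 (-0.18), Shmt2 (-0.16) and Dut (-0.15) were lowest. Of 24 genes of G2 and mitosis, 12 were higher and 12 lower, with a median of 0.00093. Their intervals lay above 0 for 7 (29.2%) and below 0 for 5 (20.8%), against 18.2% and 17.6% of all genes. At equal FPKM sums 17 were higher and 7 lower (70.8% higher, against 58.7% of all genes), with a median of 0.04 against 0.03. Then 9 intervals lay above (37.5%) and 4 below 0 (16.7%), against 25% and 12.3% of all genes. Cenpf (0.18), Hmmr (0.16) and Nusap1 (0.12) were highest, and Cdc25b (-0.18), Bub1 (-0.13) and Cdk1 (-0.11) lowest.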
